A study of Mus musculus with 10 samples.

Results

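The 43 mitosis genes described here were taken by symbol from a written list and make up 43 of the 46959 gene entries in the deposited count table. They encode mitotic kinases and cyclins, spindle checkpoint proteins, centromere and kinetochore proteins, the chromosomal passenger complex, spindle motors and microtubule proteins, chromosome structure proteins, regulators of anaphase and proteins of cytokinesis. No expression value was part of the rule, but the list was chosen with earlier results of these data known. All 43 passed the filter on low counts in each comparison. RNA sequencing covered 10 mouse libraries in 5 groups of 2, in a series on transcription from the immunoglobulin heavy chain locus under SAHA or after loss of its enhancers. Splenic B cells, selected as CD43- and labelled wt with the strain background 129, were grown for 48 h in 5 µg/ml lipopolysaccharide (LPS) and 20 ng/ml interleukin 4 (IL4), which drive B cells into division. The growth protocol instead names KOKI and BLACK-6 mice as their source, so the strain of these cells is uncertain. In the LPS_IL4_SAHA group they also received SAHA (vorinostat), which inhibits histone deacetylases, at 200 nM by the sample names and 200 ng/ml by the protocol, and the LPS_IL4 group received none. Femoral (bone marrow) B cells with the strain background C57BL6, lysed without culture, came from mice named 2KO, deltaEmu and RAG2_deficient. What 2KO stands for is not written out, but the design text names mice that lack 5′Eµ and the 3′RR, which are enhancers of the heavy chain locus. The name deltaEmu points to the Eµ enhancer, and RAG2 is a recombinase subunit that lymphocytes need to assemble antigen receptors. Mice in every group were 8 to 10 weeks old, and femoral cells of wild-type mice were not analysed here.

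In mitosis, duplicated chromosomes condense, attach to a spindle of microtubules and are pulled apart before the cell divides. Cdk1 with its cyclins starts the process, the spindle checkpoint holds anaphase until chromosomes are attached, and the anaphase promoting complex with Cdc20 then marks cyclin B and securin for destruction. Many of these genes are transcribed in a wave late in the cell cycle, under complexes that contain MuvB, Mybl2 and Foxm1. Dividing pre-B cells in the marrow and activated B cells in the spleen are both known to use them.

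Several facts of the series touch the results. Total counts were 17710154 to 25544275 per library. Columns of the count table carry bare numbers, which titles and descriptions tie to the same sample in 2 cases and to different ones in 8. The description was followed, after marker genes had been seen, and no comparison below holds if the titles are right. For the spleen samples the titles also place SAHA on the opposite samples, which would turn the sign of the SAHA comparison. Summed levels of 10 mature B cell markers were 4382 to 5999 CPM in the 4 spleen libraries and 254 to 864 CPM in the 6 femoral libraries, where CPM scales counts by the TMM-adjusted library size. Markers of other marrow lineages were nearly absent from the spleen libraries, with sums of 1.93 to 5.43 CPM for 9 erythroid, 0.161 to 0.376 CPM for 10 neutrophil precursor and 0 to 0.125 CPM for 8 stromal genes, and Elane, Fcnb, Col3a1, Dcn, Lum and Kitl had no count there. In the femoral libraries, labelled B cells, these sums were 2457 to 15436, 3058 to 8734 and 1214 to 8213 CPM, against 691 to 3165 CPM for 10 pro-B markers. The pro-B sum was also 1165 to 1400 CPM in the spleen libraries, so it does not measure pro-B cells alone. Of its 10 genes, 3 were called higher and 6 lower in LPS_IL4 than in the femoral mean. In mixed material such as the femoral libraries, fewer cells of a type and less RNA per cell cannot be told apart.

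Promoters of 5 members are shown for the letters that cell cycle regulators are known to read, because the list is known for shared control. RefSeq promoter windows (GRCm38.p6, the mm10 assembly), from 250 bases before to 50 bases after the start, were found for 36 members. Ccna2, Cdc25c, Aurkb, Incenp, Kif20a, Tpx2 and Smc4 had no entry there. The CHR, a site bound by MuvB complexes, was searched as TTTGAA or TTTAAA on both strands, and the CCAAT box, bound by NF-Y, as CCAAT on both strands. CHR letters lay in the windows of 29 of the 36 members (80.6%), against 30.6% of the 27025 genes in the same table. CCAAT lay in 28 of the 36 (77.8%), against 41.1% of all genes, and both lay in 1 window in 25 of the 36 (69.4%), against 12.2%. Matches are letters in a window and not measured sites. The 5 stretches run from 170 bases before the start to 30 bases after it, 5′ to 3′ on the gene's own strand, with CHR letters and CCAAT (or ATTGG, its complement) in capitals.
Ccnb1: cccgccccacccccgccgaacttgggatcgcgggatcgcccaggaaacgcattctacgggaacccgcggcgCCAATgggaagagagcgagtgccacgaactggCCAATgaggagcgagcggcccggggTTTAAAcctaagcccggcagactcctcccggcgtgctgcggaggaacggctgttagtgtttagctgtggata
Cdc20: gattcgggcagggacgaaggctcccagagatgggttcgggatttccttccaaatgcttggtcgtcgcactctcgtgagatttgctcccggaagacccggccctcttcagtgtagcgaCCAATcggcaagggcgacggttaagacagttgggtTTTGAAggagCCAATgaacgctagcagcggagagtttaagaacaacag
Plk1: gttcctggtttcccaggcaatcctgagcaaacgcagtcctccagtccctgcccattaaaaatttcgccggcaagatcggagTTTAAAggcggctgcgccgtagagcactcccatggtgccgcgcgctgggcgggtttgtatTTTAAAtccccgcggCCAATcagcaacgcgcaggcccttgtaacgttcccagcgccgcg
Anln: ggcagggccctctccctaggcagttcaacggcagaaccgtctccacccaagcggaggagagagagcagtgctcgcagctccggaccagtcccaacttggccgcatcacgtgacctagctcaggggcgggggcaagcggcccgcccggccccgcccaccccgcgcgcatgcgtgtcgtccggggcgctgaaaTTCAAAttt
Cdc25b: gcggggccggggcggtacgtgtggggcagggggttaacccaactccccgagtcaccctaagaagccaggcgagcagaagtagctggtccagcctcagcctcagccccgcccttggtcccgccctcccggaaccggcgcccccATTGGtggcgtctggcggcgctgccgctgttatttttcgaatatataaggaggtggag

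Ccnb1 (chr13:100786457-100786656, reverse strand), Cdc20 (chr4:118437314-118437513, reverse strand) and Plk1 (chr7:122159265-122159464, forward strand) stood among the members that were higher in LPS_IL4 cultures than in femoral cells. Each of their stretches held CHR letters with CCAAT nearby, at -42 to -37 in Ccnb1, -18 to -13 in Cdc20 and both -89 to -84 and -29 to -24 in Plk1, counted from the start at 1. Anln (chr9:22389177-22389376, reverse strand) and Cdc25b (chr2:131186778-131186977, forward strand) were lower in LPS_IL4. The Anln stretch held CHR letters only after the start, at 22 to 27, and no CCAAT, and the Cdc25b stretch held ATTGG at -28 to -24 and no CHR letters. Among the other members with a window, Nek2, Bub1, Mad2l1, Nuf2, Ncaph and Pttg1 also had no CHR letters. Of these, Nek2 and Bub1 were among the members that rose. Mki67 and Cenpf had both CHR letters and CCAAT. Their log2 differences in LPS_IL4 were -1.05 and -0.85, though neither was called in the main fit (edgeR with the low-count filter and TMM factors). Both were called lower in some alternatives, given below. Whether the letters go with the direction of change was not tested.

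All 43 mitosis genes were detected in every library. Per kilobase of exon (RPKM), mean levels over the 10 libraries ran from 8.29 RPKM for Ttk, a checkpoint kinase, to 132 RPKM for Mki67, which coats condensed chromosomes and is the antigen behind the Ki-67 proliferation stain. Top2a, the topoisomerase that untangles sister chromatids, followed at 97.1 RPKM, then the condensin subunit Smc4 at 73.8 RPKM and cyclin A2 (Ccna2) at 61.4 RPKM. The summed level of the 43 genes differed little between tissues, at 5796 to 7338 CPM in the 4 spleen libraries and 5914 to 8383 CPM in the 6 femoral libraries. Mki67 alone made up 6.33% to 16.3% of that sum in the spleen libraries and 20.9% to 29.6% in the femoral ones. Without Mki67 and Top2a the sums were 4587 to 5050.3 CPM in spleen and 3943 to 5050.5 CPM in femoral libraries, so the ranges overlapped with and without these genes.

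**Figure D1:**
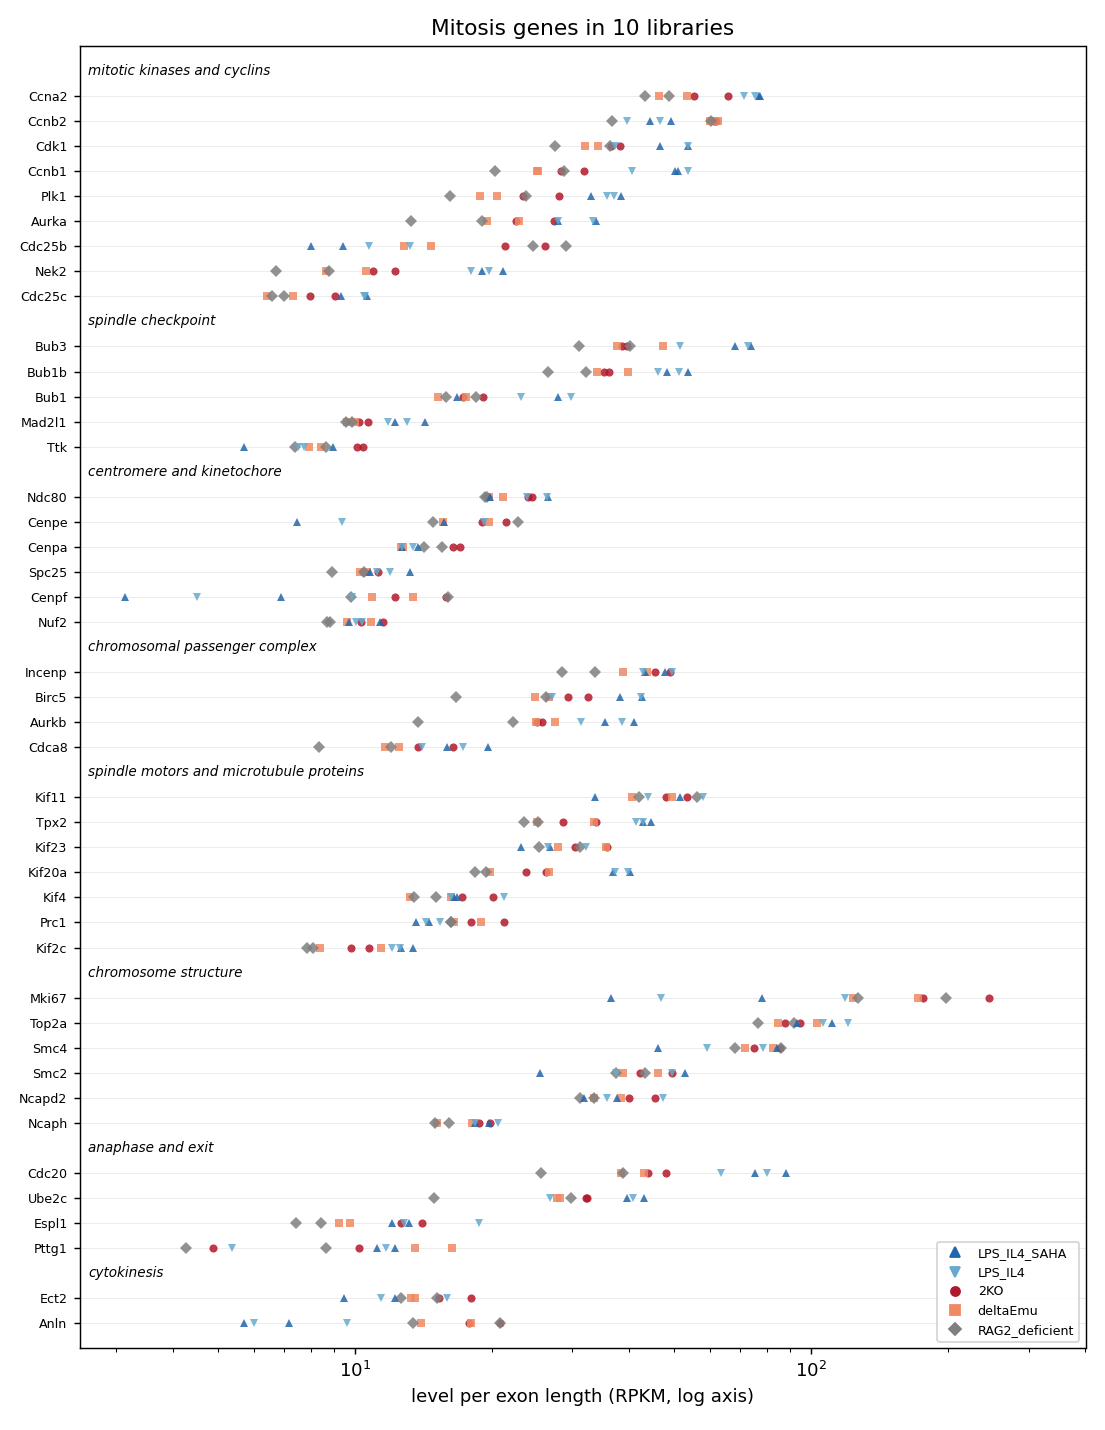
Level per exon length of each mitosis gene (RPKM, log axis) in 10 libraries, ordered by role and, within a role, by mean level, with 1 point per library. Mki67 has its spleen points to the left of its femoral points, while Cdc20, Nek2 and Ccnb1 have all spleen points to the right of all femoral points.

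The comparison of activated splenic with femoral B cells asked how the division machinery differs between these sources, with tissue, culture and strain label changing together. Relative to the mean of the 3 femoral groups, Nek2, Cdc20, Ccnb1, Kif20a and Plk1 led the 15 mitosis genes that were higher in LPS_IL4 cultures, and Anln and Cdc25b were lower. By edgeR's quasi-likelihood test with Benjamini-Hochberg adjustment, 17 of the 43 genes (39.5%) were called, against 61.2% of all 17483 genes tested. Of the members, 15 (34.9%) were higher, against 26.6% of all genes, and 2 (4.65%) were lower, against 34.6%. The share of members called was thus below that of all genes, and most of the calls lay on the higher side. Their median log2 fold change was 0.25, and that of all genes tested was -0.15.

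Mitotic kinases and cyclins gave 6 higher and 1 lower of 9. Nek2 (chr1:191821444-191833050), a kinase that separates centrosomes, had 86.0 and 95.7 CPM in LPS_IL4_SAHA, 88.8 and 81.1 in LPS_IL4, 49.6 and 55.2 in 2KO, 47.9 and 39.1 in deltaEmu and 39.7 and 30.4 in RAG2_deficient. Every spleen library lay above every femoral library, and the LPS_IL4 group was 1.97-fold higher (log2 0.98 ± 0.15, adjusted p = 0.000289). Ccnb1 (chr13:100778650-100786570), the cyclin B1 partner of Cdk1 whose promoter is shown above, had 212 and 216 CPM in LPS_IL4_SAHA, 227 and 171 in LPS_IL4, 119.5 and 134 in 2KO, 106 and 106 in deltaEmu and 121 and 85.4 in RAG2_deficient. Here too the spleen libraries stood apart from the femoral ones, and the log2 fold change was 0.84 ± 0.17 (adjusted p = 0.00209). Plk1 (chr7:122159439-122169873), the polo kinase that acts from mitotic entry to cytokinesis, had 72.4 and 84.5 CPM in LPS_IL4_SAHA, 78.7 and 81.3 in LPS_IL4, 51.4 and 61.7 in 2KO, 45.0 and 41.3 in deltaEmu and 52.1 and 35.5 in RAG2_deficient, with no overlap between tissues (log2 0.75 ± 0.16, adjusted p = 0.0028). Ccna2, the most abundant of the group per length, had 314 and 316 CPM in LPS_IL4_SAHA, 309 and 291 in LPS_IL4, 226 and 268 in 2KO, 219 and 189 in deltaEmu and 199 and 177 in RAG2_deficient (log2 0.50 ± 0.15, adjusted p = 0.0152). Its spleen values sat close together and above all femoral values. Aurka, a spindle pole kinase, had 70.6 and 85.7 CPM in LPS_IL4_SAHA, 84.1 and 70.7 in LPS_IL4, 57.1 and 69.0 in 2KO, 58.1 and 49.3 in deltaEmu and 48.1 and 33.6 in RAG2_deficient and rose by 0.58 on the log2 scale (adjusted p = 0.0154). Cdc25c, a phosphatase that activates Cdk1, had 20.4 and 20.3 CPM in LPS_IL4, against a lowest, median and highest femoral value of 12.4, 13.9 and 17.5 CPM (log2 0.52 ± 0.14).

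Cdk1, the catalytic partner of these cyclins, had 161 and 185 CPM in LPS_IL4_SAHA, 185 and 128 in LPS_IL4, 125 and 132 in 2KO, 110.3 and 118 in deltaEmu and 125 and 94.6 in RAG2_deficient, and its log2 difference of 0.42 ± 0.18 did not pass (adjusted p = 0.0667). The 6_et_8 library of LPS_IL4 lay within the femoral range. Ccnb2, the other B-type cyclin, had 71.8 and 60.8 CPM in LPS_IL4, against 56.5, 93.8 and 96.6 CPM as the lowest, median and highest of the femoral libraries (log2 -0.40 ± 0.19, adjusted p = 0.095). Cdc25b (chr2:131186949-131198497), which encodes a phosphatase that activates cyclin-dependent kinases early in mitotic entry, was the 1 gene of this role called lower. It had 29.9 and 35.1 CPM in LPS_IL4_SAHA, 40.0 and 49.3 in LPS_IL4, 79.6 and 97.5 in 2KO, 47.8 and 54.8 in deltaEmu and 91.7 and 108 in RAG2_deficient. The spleen values were low, although those of LPS_IL4 overlapped with deltaEmu, and the fall was called (log2 -0.78 ± 0.17, adjusted p = 0.00246).

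Spindle checkpoint genes gave 3 higher of 5, and none lower. Bub3 (chr7:131560391-131571898), the adaptor that brings Bub1 and Bub1b to kinetochores, had 139.8 and 152 CPM in LPS_IL4_SAHA, 149 and 106 in LPS_IL4, 79.0 and 81.1 in 2KO, 97.3 and 77.2 in deltaEmu and 82.4 and 63.7 in RAG2_deficient (log2 0.68 ± 0.18, adjusted p = 0.00762). The spleen values exceeded all femoral values, with the 6_et_8 library of LPS_IL4 the lowest of them. Bub1, a checkpoint kinase, had 121 and 72.8 CPM in LPS_IL4_SAHA, 101 and 129.7 in LPS_IL4, 75.2 and 83.3 in 2KO, 76.3 and 66.1 in deltaEmu and 68.8 and 80.4 in RAG2_deficient (log2 0.62 ± 0.20, adjusted p = 0.0211). Its LPS_IL4 values were above every femoral value, but 1 LPS_IL4_SAHA library was not. Bub1b, which encodes the BubR1 protein of the mitotic checkpoint complex, had 207 and 229 CPM in LPS_IL4_SAHA, 220.1 and 197 in LPS_IL4, 154 and 150.1 in 2KO, 169 and 145 in deltaEmu and 137 and 113 in RAG2_deficient (log2 0.53 ± 0.15, adjusted p = 0.0106). Mad2l1, the Mad2 subunit of that complex, had a log2 difference of 0.31 ± 0.13 (adjusted p = 0.0598), and Ttk one of -0.20 ± 0.18 (adjusted p = 0.341).

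In the main fit, no centromere or kinetochore gene of 6 passed. Ndc80, a microtubule-binding kinetochore subunit and the most abundant of this group per length, had 58.4 and 43.5 CPM in LPS_IL4_SAHA, 52.5 and 58.2 in LPS_IL4, 52.9 and 53.8 in 2KO, 46.5 and 43.3 in deltaEmu and 42.8 and 42.6 in RAG2_deficient (log2 0.24 ± 0.14). Cenpf, a large kinetochore protein, had 106 and 48.3 CPM in LPS_IL4_SAHA, 69.6 and 152 in LPS_IL4, 189 and 244 in 2KO, 207 and 169 in deltaEmu and 151 and 246 in RAG2_deficient. The libraries of each spleen group differed by more than 2-fold from each other, and the log2 difference of -0.85 ± 0.38 came with an adjusted p of 0.0756. Cenpf was called lower with DESeq2 or no filter (adjusted p of 0.0393 and 0.000664) and without RAG2_deficient replicate 2 (0.0470). Its log2 difference was -1.42 without the 6_et_8 library of LPS_IL4 (adjusted p = 0.0150) and -0.40 without the 4_et_7 library (0.428). Log2 differences of Cenpa, the centromeric histone variant, Cenpe, a kinetochore motor, and the Ndc80 partners Nuf2 and Spc25 were -0.17 ± 0.13, -0.40 ± 0.34, 0.04 ± 0.13 and 0.16 ± 0.14 in that order.

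Of the chromosomal passenger complex, which corrects faulty attachments, 1 of 4 genes was called. Aurkb (chr11:69045647-69051664), its kinase, had 104 and 121 CPM in LPS_IL4_SAHA, 114 and 92.4 in LPS_IL4, 74.0 and 75.9 in 2KO, 80.9 and 73.6 in deltaEmu and 65.3 and 40.4 in RAG2_deficient (log2 0.61 ± 0.18, adjusted p = 0.0159), with the spleen libraries above all femoral ones. Incenp, the scaffold and the most abundant of the 4 per length, had 139 and 154 CPM in LPS_IL4_SAHA, 138 and 159 in LPS_IL4, 147 and 158 in 2KO, 140.4 and 124 in deltaEmu and 108 and 91.6 in RAG2_deficient (log2 0.24 ± 0.15, adjusted p = 0.19), and its spleen values overlapped those of 2KO and deltaEmu. Birc5 (survivin) and Cdca8 (borealin), which target the complex to centromeres, had log2 differences of 0.43 ± 0.21 and 0.35 ± 0.18.

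Spindle motors and microtubule proteins gave 3 higher of 7. Kif20a, a motor of the central spindle, had 151 and 141 CPM in LPS_IL4, against a lowest, median and highest femoral value of 69.6, 82.6 and 101 CPM (log2 0.79 ± 0.15, adjusted p = 0.00116). Of its exon bases 33.2% overlap exons of Cdc23 on the opposite strand, and whether strand was used in counting is not given in the sources used here. Opposite-strand exons of other genes also overlap 12.5% of the exon bases of Ccna2, 15.1% of Kif4 and 11.1% of Prc1. Tpx2, which activates Aurka on spindles, had 193 and 201 CPM in LPS_IL4, against femoral values of 110.0, 126 and 158 CPM (log2 0.58 ± 0.15). Kif2c, a microtubule depolymerase, rose by 0.40 on the log2 scale (adjusted p = 0.0322), a call that was lost with DESeq2 and without 2KO replicate 1, deltaEmu replicate 7 or the 4_et_7 library of LPS_IL4 (adjusted p up to 0.12). Kif11, the motor that pushes spindle poles apart, had 249 and 162 CPM in LPS_IL4_SAHA, 212 and 279 in LPS_IL4, 232 and 258 in 2KO, 239 and 196 in deltaEmu and 202 and 272 in RAG2_deficient (log2 0.08 ± 0.22, adjusted p = 0.783), and its spleen and femoral values interleaved. Log2 differences were 0.25 ± 0.16 for the chromokinesin Kif4, -0.08 ± 0.17 for Kif23 and -0.26 ± 0.14 for the microtubule bundler Prc1.

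None of the 6 chromosome structure genes passed in the main fit. Mki67 (chr7:135689788-135716379) had 788 and 367 CPM in LPS_IL4_SAHA, 472 and 1198 in LPS_IL4, 1769.8 and 2481 in 2KO, 1726 and 1247 in deltaEmu and 1280.2 and 1997 in RAG2_deficient. Every spleen value was below every femoral value, but the spread within the spleen groups was wide, and the log2 difference of -1.05 ± 0.43 had an adjusted p of 0.0589. Mki67 was called lower with DESeq2, median-ratio size factors or no filter (adjusted p of 0.0135, 0.0475 and 0.000203) and without RAG2_deficient replicate 2 (0.0419). The log2 difference was -1.76 without the 6_et_8 library of LPS_IL4 (adjusted p = 0.00939) and -0.53 without the 4_et_7 library (0.343). Top2a (chr11:98992943-99024189) had 1004 and 842 CPM in LPS_IL4_SAHA, 958 and 1089.5 in LPS_IL4, 793 and 851 in 2KO, 932 and 765 in deltaEmu and 691 and 828 in RAG2_deficient (log2 0.34 ± 0.19, adjusted p = 0.144). Both LPS_IL4 values were above all femoral values, by a small margin at the lower end. Condensin subunits Smc2, Smc4, Ncapd2 and Ncaph had log2 differences between -0.18 and 0.19.

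Among 4 regulators of anaphase and exit, Cdc20 and Espl1 were higher. Cdc20 (chr4:118432901-118437352), the activator of the anaphase promoting complex, had 141 and 165 CPM in LPS_IL4_SAHA, 149.6 and 119 in LPS_IL4, 82.2 and 90.0 in 2KO, 80.3 and 71.7 in deltaEmu and 72.4 and 47.8 in RAG2_deficient (log2 0.87 ± 0.18, adjusted p = 0.00203), and the tissues did not overlap. Espl1 (chr15:102296293-102324356), the separase that cuts cohesin, had 80.2 and 87.4 CPM in LPS_IL4_SAHA, 84.9 and 124 in LPS_IL4, 83.8 and 93.0 in 2KO, 64.8 and 61.3 in deltaEmu and 56.0 and 49.2 in RAG2_deficient (log2 0.65 ± 0.16, adjusted p = 0.00552). Its LPS_IL4 and 2KO values overlapped, while deltaEmu and RAG2_deficient were low. Ube2c, the ubiquitin-conjugating enzyme of the complex, had 103 and 112 CPM in LPS_IL4_SAHA, 106 and 69.6 in LPS_IL4, 83.4 and 84.1 in 2KO, 72.0 and 73.1 in deltaEmu and 77.4 and 38.7 in RAG2_deficient (log2 0.31 ± 0.24, adjusted p = 0.293). Exons of Tnnc2 on the opposite strand overlap 22.8% of its exon bases. Pttg1 (securin), the inhibitor of separase, had 22.4 and 24.5 CPM in LPS_IL4_SAHA, 23.4 and 10.8 in LPS_IL4, 20.4 and 9.75 in 2KO, 27.0 and 32.7 in deltaEmu and 17.3 and 8.53 in RAG2_deficient (log2 -0.08 ± 0.37), with a wide spread in LPS_IL4, 2KO and RAG2_deficient alike. Of the cytokinesis genes, Anln (chr9:22331214-22389206), which encodes the ring scaffold anillin, had 39.0 and 30.9 CPM in LPS_IL4_SAHA, 32.6 and 52.2 in LPS_IL4, 96.3 and 113 in 2KO, 97.4 and 75.7 in deltaEmu and 72.6 and 113 in RAG2_deficient. All spleen values were below all femoral values, and LPS_IL4 was 2.22-fold lower (log2 -1.15 ± 0.25, adjusted p = 0.00283). Ect2, the exchange factor that activates RhoA at the division plane, had 66.0 and 50.9 CPM in LPS_IL4_SAHA, 61.5 and 85.6 in LPS_IL4, 82.2 and 96.7 in 2KO, 71.6 and 72.8 in deltaEmu and 68.1 and 81.6 in RAG2_deficient (log2 -0.09 ± 0.18, adjusted p = 0.671), and its groups overlapped.

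**Figure D2:**
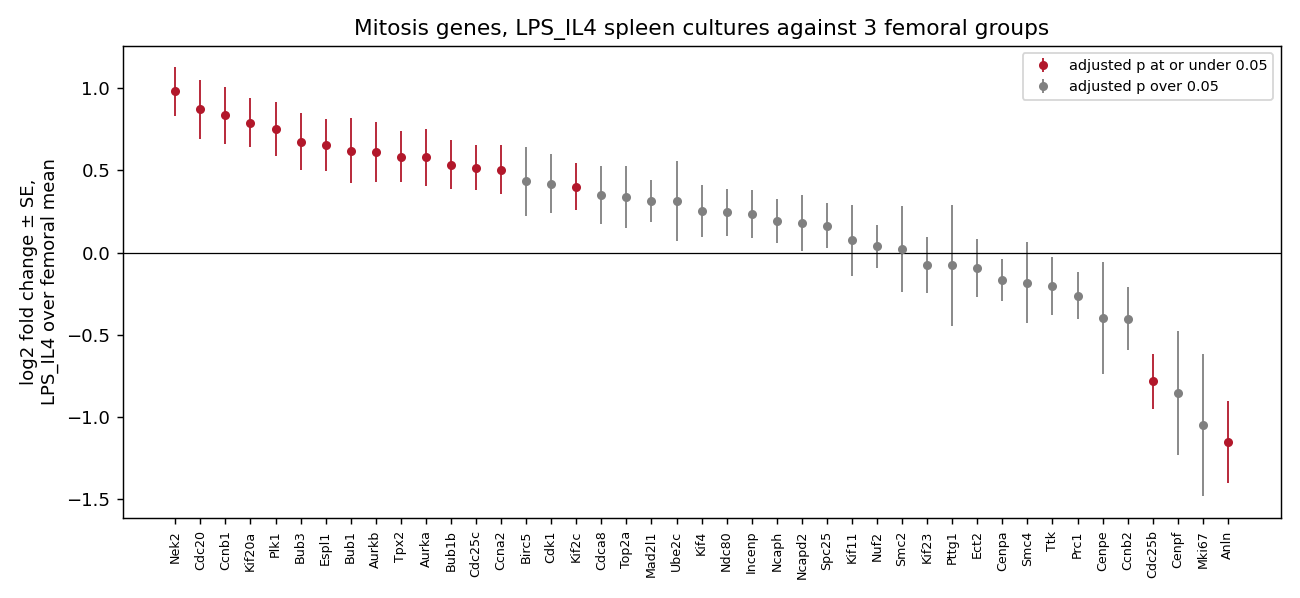
Log2 fold change of LPS_IL4 over the mean of the 3 femoral groups for each mitosis gene (points) with its standard error (bars), sorted by size, red where the adjusted p was at or under 0.05. Nek2 leads the 15 higher genes at 0.98, and Anln is lowest at -1.15, while Cenpf and Mki67 have wide bars.

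Calls in this comparison rested partly on the 4_et_7 library of LPS_IL4. Without it, which leaves that group 1 library, Bub1b, Aurka, Ccna2, Bub3, Aurkb and Kif2c were lost. Fewer of all genes were called in that fit as well, both higher and lower, but the members lost a larger part of their calls. The median log2 fold change of the members was 0.26 without the 4_et_7 library and 0.36 without the 6_et_8 library, against 0.25 with both. Nek2, Cdc20, Ccnb1, Kif20a, Plk1, Espl1, Tpx2, Cdc25c, Cdc25b and Anln were called in all 15 alternatives, while Bub1 was lost without deltaEmu replicate 7 or the 6_et_8 library of LPS_IL4. Marker sums of other lineages, given above, moved with the tissue, and their part in these differences was not tested.

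Genes around the members were read from lists of the same pathway. Of 50 other mitosis genes, 16 were higher and 8 lower in LPS_IL4. Zwilch, a kinetochore protein, Gtse1, a microtubule-associated protein, and the kinase Melk were the higher genes with the smallest adjusted p (log2 1.03 ± 0.12, 0.96 ± 0.14 and 0.93 ± 0.14), and Depdc1b, the condensin II subunit Ncapd3 and Depdc1a were the lower ones (log2 -1.85 ± 0.15, -0.93 ± 0.19 and -0.77 ± 0.19). Subunits and partners of the anaphase promoting complex gave 11 higher and none lower of 17, led by the ubiquitin-conjugating enzyme Ube2s (log2 0.84 ± 0.17) and the subunits Anapc4 (0.54 ± 0.13) and Anapc5 (0.64 ± 0.16). DNA replication genes gave 24 higher and 1 lower of 33, with the origin binding subunit Orc6 (1.25 ± 0.13) and Mcm10 (0.97 ± 0.12) among the higher ones, and the lower gene was the cyclin Ccne2 (-0.44 ± 0.17). Median log2 values were 0.12, 0.45 and 0.60 for the 3 lists in that order, against -0.15 for all genes tested.

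Of 24 regulators of transcription, 5 were higher and 8 lower, close to the shares of all genes (26.6% higher and 34.6% lower), and their median was -0.24. Mybl2, which joins MuvB at the CHR, had 128 and 149 CPM in LPS_IL4_SAHA, 132 and 149 in LPS_IL4, 41.9 and 54.8 in 2KO, 42.0 and 36.7 in deltaEmu and 38.1 and 34.3 in RAG2_deficient (log2 1.78 ± 0.14, adjusted p = 5.37e-06), so that spleen values were more than 2-fold above each femoral value. E2f5 and E2f4, members of the E2F family, were also higher, E2f5 at 11.1 and 10.8 CPM in LPS_IL4 and E2f4 with a log2 fold change of 0.87 ± 0.15. Foxm1 had 25.6 and 30.9 CPM in LPS_IL4_SAHA, 29.8 and 50.3 in LPS_IL4, 62.2 and 75.0 in 2KO, 63.2 and 59.1 in deltaEmu and 49.4 and 50.7 in RAG2_deficient and was lower (log2 -0.57 ± 0.20, adjusted p = 0.0332), although 1 LPS_IL4 library lay within the femoral range. The lower genes with the smallest adjusted p were Myb, a regulator of blood progenitors (-3.70 ± 0.22), the E2F partner Tfdp2 (-3.01 ± 0.19) and E2f2 (-1.40 ± 0.18). Rbl2, the pocket protein that silences CHR genes in resting cells, was lower (log2 -0.67 ± 0.19, adjusted p = 0.0131). Of 13 inhibitors of the cycle, 4 were higher and 6 lower. Cdkn1a and Cdkn1b, which bind and inhibit cyclin-dependent kinases, fell (log2 -1.59 ± 0.24 and -0.89 ± 0.19), as did Gadd45a (-2.44 ± 0.23) and Cdkn2d (-2.08 ± 0.24). Cdkn2a, which encodes other inhibitors, had 2.72 and 3.56 CPM in LPS_IL4_SAHA, 6.56 and 5.02 in LPS_IL4, 0.00 and 0.00 in 2KO, 0.0493 and 0.0571 in deltaEmu and 0.119 and 0.00 in RAG2_deficient, so that 3 femoral libraries held no count, and Cdkn2b and Sfn were higher as well, at 3.01 and 3.17 CPM in LPS_IL4 and 20.3 and 19.7 CPM in LPS_IL4.

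The SAHA comparison asked whether the inhibitor changed these genes in LPS_IL4 cultures. In LPS_IL4_SAHA against LPS_IL4, 0 of 43 members were called by edgeR and 0 by DESeq2, and 0% of all 13913 genes were called. At an unadjusted p of 0.05, edgeR gave 0 members and 187 genes (1.34% of those tested). The smallest adjusted p among members was 0.939. Log2 differences ran from -0.57 for Mki67 to 0.42 for Pttg1, with a median of -0.06, against -0.03 for all genes, and standard errors of 0.19 to 0.57. A p over the threshold does not show that the levels were alike.

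Mki67 had 788 and 367 CPM in LPS_IL4_SAHA, against 472 and 1198 in LPS_IL4 (log2 -0.57 ± 0.57). The 4_et_7 value with SAHA lay between the LPS_IL4 values and the 6_et_8 value below both. Cenpf had 106 and 48.3 CPM in LPS_IL4_SAHA, against 69.6 and 152 in LPS_IL4 (log2 -0.56 ± 0.52), and 1 LPS_IL4_SAHA value fell within the LPS_IL4 range. Cdc25b had 29.9 and 35.1 CPM in LPS_IL4_SAHA, against 40.0 and 49.3 in LPS_IL4. Both LPS_IL4_SAHA values were below both LPS_IL4 values, and the log2 difference was -0.50 ± 0.22 with an unadjusted p of 0.061. On the other side, Pttg1 had 22.4 and 24.5 CPM in LPS_IL4_SAHA, against 23.4 and 10.8 in LPS_IL4 (log2 0.42 ± 0.38), Ube2c had 103 and 112 CPM in LPS_IL4_SAHA, against 106 and 69.6 in LPS_IL4 (log2 0.25 ± 0.27) and Birc5 had 129.7 and 145 CPM in LPS_IL4_SAHA, against 145 and 91.9 in LPS_IL4 (log2 0.18 ± 0.28). The groups overlapped in all of them, with the 6_et_8 library of LPS_IL4 the low value each time. By role, the median log2 difference was 0.03 for kinases and cyclins, 0.02 for checkpoint genes, -0.09 for kinetochore genes, 0.11 for passenger genes, -0.12 for motors, -0.19 for chromosome structure, 0.20 for anaphase and exit and -0.35 for cytokinesis.

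The libraries of this experiment stood apart in a way that crossed both treatment and pool. Pools 4_et_7 and 6_et_8 are named in both groups, but same-numbered libraries deviated from their group means in opposite directions, with a correlation of -0.44 over 13913 genes. Mki67 shows the pattern, since 4_et_7 with SAHA (788 CPM) and 6_et_8 without it (1198 CPM) were high, and the other two were low. Among the members the difference between replicates went with gene length. The log2 ratio of 6_et_8 over 4_et_7 had a Spearman correlation with exon length of -0.55 in LPS_IL4_SAHA and 0.64 in LPS_IL4 over the 43 genes, against -0.22 and 0.33 over all 17483 genes. For RAG2_deficient, replicate 3 over 2 gave 0.66, against 0.33 over all genes. In LPS_IL4 the 15 longest members (5210 exon bases or more) had a median log2 ratio of 0.41, and the 15 shortest (3445 or fewer) of -0.25. In LPS_IL4_SAHA these medians were -0.25 and 0.15, and in RAG2_deficient 0.22 and -0.51. Ratios of 2KO replicates 3 over 1 and deltaEmu replicates 7 over 5 gave 0.37 and -0.31. These are descriptions across genes of the same libraries. Mki67, Cenpf and Cenpe, which lead the SAHA comparison or vary most, lie at the long end of this trend. The short gene Pttg1 lies at the other end in LPS_IL4 and RAG2_deficient (log2 ratios of -1.11 and -1.01) but not in LPS_IL4_SAHA (0.13). The part of length in the differences of these genes was not tested.

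**Figure D3:**
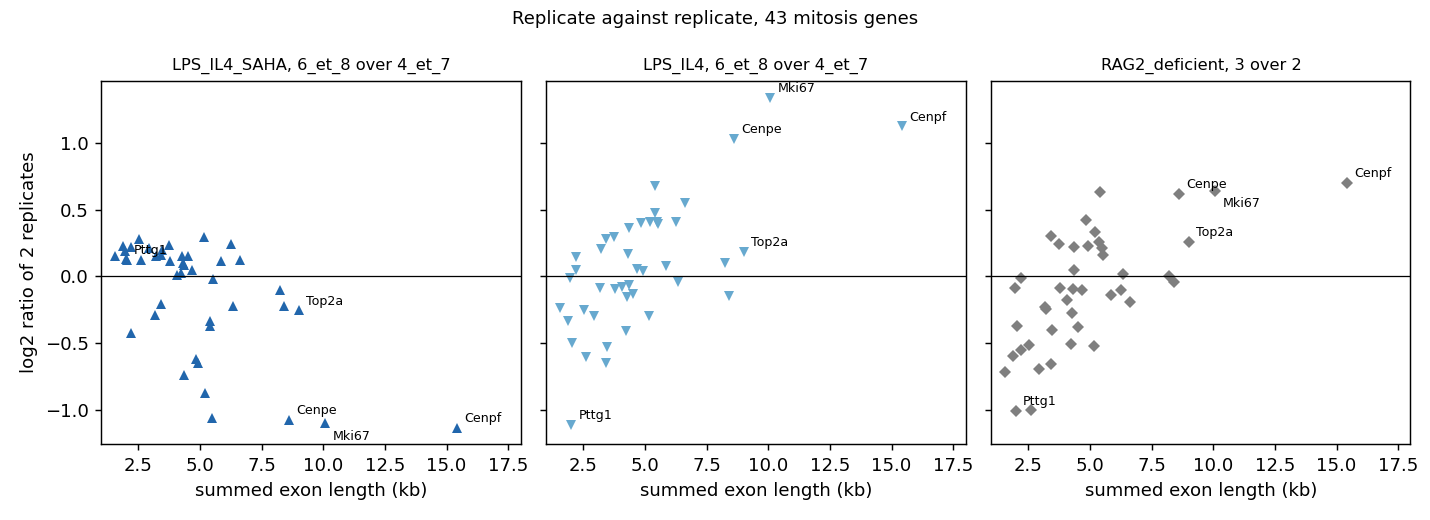
Log2 ratio of the 2 replicates of a group (vertical axis) against summed exon length in kb (horizontal axis) for the 43 mitosis genes, in LPS_IL4_SAHA, LPS_IL4 and RAG2_deficient. The cloud slopes down in LPS_IL4_SAHA (Spearman -0.55) and up in LPS_IL4 (0.64) and RAG2_deficient (0.66), with Mki67, Cenpe and Cenpf among the long genes at the ends.

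The SAHA result depended on the crossing libraries. Without the 4_et_7 library of LPS_IL4, that group has no replicate. Log2 differences were then 1.11 for Pttg1, -1.06 for Mki67 and -0.61 for Cdc25b, against 0.42, -0.57 and -0.50 with all spleen libraries. Calls in that fit were not particular to members, since many other genes were called, both higher and lower. With all spleen libraries no gene was called. Leaving out the 6_et_8 library of LPS_IL4 turned the signs of Mki67, Cenpf, Pttg1 and Birc5. With the pool as a replicate block, 0 members were called.

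Comparing 2KO with deltaEmu bears on the enhancer deletions. No member was called, against 3.7% of all 16538 genes tested. At an unadjusted p of 0.05, 4 members passed by edgeR, and so did 2597 of all genes tested (15.7%). DESeq2 called 1 member, Cdc25b, where it called 449 of all genes higher and 456 lower. Most members lay slightly higher in 2KO, with 38 above 0 and 5 below and a median log2 difference of 0.21, against -0.01 for all genes. Cdc25b had 79.6 and 97.5 CPM in 2KO, against 47.8 and 54.8 in deltaEmu. The groups did not overlap, and 2KO was 1.74-fold higher (log2 0.80 ± 0.19, adjusted p = 0.0661). Espl1 had 83.8 and 93.0 CPM in 2KO, against 64.8 and 61.3 in deltaEmu, also without overlap (log2 0.50 ± 0.15, adjusted p = 0.155). Mki67 had 1769.8 and 2481 CPM in 2KO, against 1726 and 1247 in deltaEmu (log2 0.53 ± 0.35), with both 2KO values above both deltaEmu values. On the lower side, Pttg1 had 20.4 and 9.75 CPM in 2KO, against 27.0 and 32.7 in deltaEmu (log2 -0.97 ± 0.41, adjusted p = 0.302), without overlap. Bub3 had 79.0 and 81.1 CPM in 2KO, against 97.3 and 77.2 in deltaEmu and Bub1b 154 and 150.1 CPM in 2KO, against 169 and 145 in deltaEmu, with log2 differences of -0.11 ± 0.19 and -0.03 ± 0.18 and overlapping groups. Without RAG2_deficient replicate 2, or without replicate 3, Cdc25b and Espl1 were both called.

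Other cell types moved in the same comparison. All 9 measured erythroid markers rose in 2KO, with sums of 10435 and 15436 CPM, against 2457 and 2603 CPM in deltaEmu. Of 10 mature B cell markers 4 fell (sums of 488 and 412 CPM, against 864 and 776 CPM), and so did 1 of 10 neutrophil precursor markers (4764 and 4462 CPM, against 8734 and 8067 CPM) and 1 of 8 stromal markers (1705 and 1214 CPM, against 2364 and 2459 CPM). Their part in the member values was not tested. In the lists of neighbouring genes, Tfdp2, an E2F partner, was the 1 gene called, at 155 and 203 CPM in 2KO, against 85.7 and 78.6 in deltaEmu (log2 1.14 ± 0.19, adjusted p = 0.0183). No gene passed among 50 other mitosis genes, 17 subunits and partners of the anaphase promoting complex, 33 replication genes or the 11 inhibitors tested by edgeR.

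Against RAG2_deficient cells, where Rag2 and the enhancers differ together, each genotype had 1 member called. In 2KO, 1 of 43 (2.33%) was called, against 4.31% of all 16538 genes, and it was higher, against 1.26% of all genes. Espl1 had 83.8 and 93.0 CPM in 2KO, against 56.0 and 49.2 in RAG2_deficient. The groups did not overlap, and 2KO was 1.65-fold higher (log2 0.72 ± 0.15, adjusted p = 0.0454). Of 43 members 42 lay above 0, and the median log2 difference was 0.29, against -7e-04 for all genes. Aurka had 57.1 and 69.0 CPM in 2KO, against 48.1 and 33.6 in RAG2_deficient (log2 0.60 ± 0.21, adjusted p = 0.159), and Incenp had 147 and 158 CPM in 2KO, against 108 and 91.6 in RAG2_deficient (log2 0.58 ± 0.17, adjusted p = 0.108), both without overlap. Cdc25b was the 1 member below 0, at 79.6 and 97.5 CPM in 2KO, against 91.7 and 108 in RAG2_deficient (log2 -0.21 ± 0.18). The Espl1 call held in 5 of 11 alternatives and was lost in the fit of all 10 libraries and without either 2KO library, either deltaEmu library or RAG2_deficient replicate 3 (adjusted p up to 0.387). Without RAG2_deficient replicate 2, which leaves that group 1 library, more members were called higher. The share of all genes called in that fit is not given here.

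In deltaEmu, 1 of 43 (2.33%) was called, against 9.81% of all genes, and it was lower, against 5.39% of all genes. Cdc25b had 47.8 and 54.8 CPM in deltaEmu, against 91.7 and 108 in RAG2_deficient. Both deltaEmu values were below both RAG2_deficient values, a 2.01-fold difference (log2 -1.004 ± 0.19, adjusted p = 0.0167). The call was lost without deltaEmu replicate 5 or 7 (adjusted p up to 0.204). The median of the members was 0.08, against -0.01 for all genes. Pttg1 had 27.0 and 32.7 CPM in deltaEmu, against 17.3 and 8.53 in RAG2_deficient (log2 1.18 ± 0.41, adjusted p = 0.119), and the groups did not overlap. Aurkb had 80.9 and 73.6 CPM in deltaEmu, against 65.3 and 40.4 in RAG2_deficient (log2 0.51 ± 0.22), and Incenp had 140.4 and 124 CPM in deltaEmu, against 108 and 91.6 in RAG2_deficient (log2 0.37 ± 0.17). Both were higher in each deltaEmu library than in each RAG2_deficient library, and neither passed. On the lower side, Cenpa had 74.0 and 74.6 CPM in deltaEmu, against 91.1 and 82.9 in RAG2_deficient (log2 -0.27 ± 0.15), and Mki67 had 1726 and 1247 CPM in deltaEmu, against 1280.2 and 1997 in RAG2_deficient (log2 -0.19 ± 0.35) with overlapping groups. With RAG2_deficient replicate 2 left out, which leaves that group 1 library, more members were called, most of them higher. The share of all genes called there is not given here. The kinetochore gene Cenpl, from the list of other mitosis genes, was called lower, at 17.9 and 18.3 CPM in deltaEmu, against 29.6 and 32.0 in RAG2_deficient (log2 -0.81 ± 0.19, adjusted p = 0.0391).

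**Figure D4:**
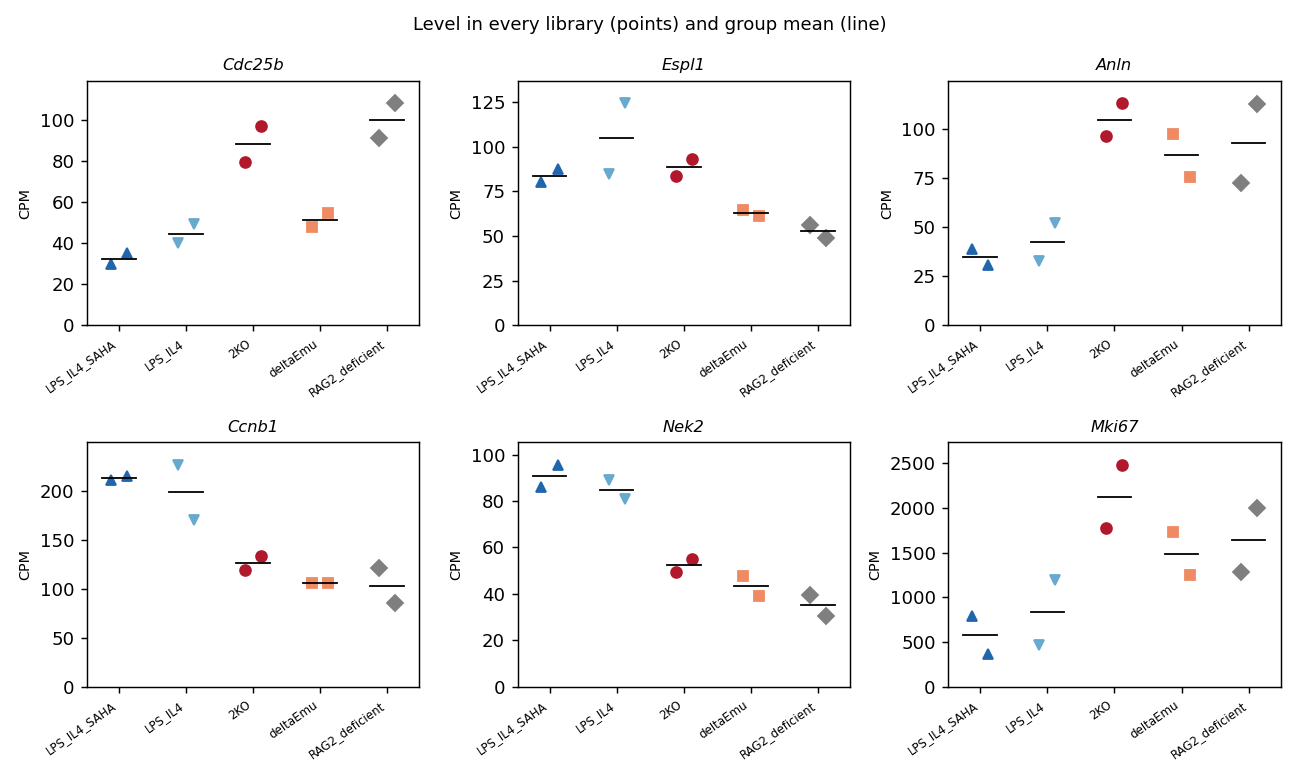
CPM of 6 mitosis genes in each library (points) with the group mean (line), on axes that start at 0. Cdc25b is low in deltaEmu and in both spleen groups, Espl1 is low in deltaEmu and RAG2_deficient, Ccnb1 and Nek2 are high and Anln low in the spleen groups, and Mki67 differs widely between replicates.

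Markers moved between these groups as well. Stromal markers were lower in 2KO (6 of 8 called, sums of 1705 and 1214 CPM) and in deltaEmu (8 of 8, 2364 and 2459 CPM) than in RAG2_deficient (8213 and 7220.1 CPM). Pro-B markers were lower in 2KO (7 of 10, 1113 and 691 CPM) and in deltaEmu (6 of 10, 819 and 1207 CPM) than in RAG2_deficient (2836 and 3165 CPM). Erythroid markers were higher in 2KO (4 of 9) and lower in deltaEmu (1 of 9), neutrophil precursor markers higher in deltaEmu (6 of 10), and mature B cell markers higher in deltaEmu (7 of 10). In 2KO, 3 of 10 mature B cell markers were called higher, while the other 7 lay below 0 and the median log2 difference was -0.49. Their part in the differences of Espl1, Cdc25b and the other members was not tested. Cdc25b thus had the order RAG2_deficient, 2KO, deltaEmu, LPS_IL4 and LPS_IL4_SAHA from high to low by group mean. Neighbouring groups in that order overlapped between RAG2_deficient and 2KO and between deltaEmu and LPS_IL4. The 3 femoral comparisons share libraries, so their values are not independent of each other.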

How the data were processed

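The authors deposited raw counts of reads in genes as 1 table. The submitters' processing notes name STAR 2.4.0a for alignment and featureCounts of Subread 1.4.6-p1 for counting. Coordinates are those of the deposited table, on mm10. Per the labels, the libraries were stranded total RNA, but whether counting used strand or reads with several matches is not given in the sources used here. Columns were assigned to samples by the index at the end of each description. The deposited counts of 100 control sequences (0 to 17 per library) stayed out.

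Testing used edgeR 4.0.16 under R 4.3.3 on the counts: filterByExpr (minimum count 10), TMM factors, the quasi-likelihood test and p-values adjusted by Benjamini-Hochberg across every tested gene, with genes called at an adjusted p of 0.05. The SAHA comparison used the 4 spleen libraries, the femoral comparisons the 6 femoral libraries, and the comparison of tissues all 10. Where no alternative is named, an adjusted p comes from it. RPKM divides CPM by the deposited exon length, replicate ratios used a pseudocount of 0.1 CPM, and errors of log2 values are standard errors. The code was tested on simulated counts.

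The pool names place the same mice in both spleen groups, so the pool pairs them, yet same-numbered deviations correlated at -0.44. In the SAHA comparison, spread between these pools is all that the p-values measure. Those of the femoral comparisons measure spread between femoral libraries of a group, and those of the tissue comparison spread within all groups. The design text and the pool names differ on how many samples a pool holds. Members and lists were chosen with earlier results of these data known. Values in every library are given for the most abundant member of each role, for 8 core genes (Mki67, Top2a, Ccnb1, Cdk1, Plk1, Aurkb, Bub1 and Cdc20), and for the 3 members with the largest change in each direction of a comparison. Genes outside the list are named where they are among the 3 smallest adjusted p in a direction of their list, and as Foxm1, Mybl2, Cdkn1a, Cdkn1b and Rbl2. Some called members (Aurka, Bub1b, Kif20a, Tpx2 and Cdc25c) and the lower gene Ccne2 are given beyond this rule. Values of some genes that the rule names are not reported here. Alternatives were DESeq2 1.42.0, median-ratio size factors, no filter, removal of 391 immunoglobulin and 218 mitochondrial and ribosomal RNA genes, other sets of libraries, a replicate block and each library left out.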

Additional observations from a re-analysis of the deposited data

How the results depend on the processing

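In the comparison of LPS_IL4 with the femoral mean, leaving out 1 library gave 11 to 23 called members, and the other alternatives 17 to 21. For 2KO minus deltaEmu, DESeq2 called 1 member, and 449 of all genes higher and 456 lower. No filter gave 2 members (Cdc25b higher and Pttg1 lower). For 2KO minus RAG2_deficient the range was 0 to 12, and the fit of all 10 libraries gave 0. For deltaEmu minus RAG2_deficient, DESeq2 and no filter gave 2 members each (Pttg1 higher and Cdc25b lower). DESeq2 called 905 of all genes higher and 1051 lower there. The SAHA comparison gave 0 to 3 when 1 library was left out. In the SAHA comparison with the pool as a replicate block, as with no block, 0 members were called. Crossing the pool numbers, which was chosen after seeing the data, also gave 0 members and 0 genes. Signs turned for members that had not been called: leaving out 1 library, Bub3 ranged from -0.26 to 0.0494 and Bub1b from -0.13 to 0.0686 in 2KO minus deltaEmu, and Mki67 from -0.47 to 0.18 in deltaEmu minus RAG2_deficient. With SAHA, Mki67 ranged from -1.20 to 0.27, Cenpf from -1.21 to 0.13, Pttg1 from -0.0176 to 1.11 and Birc5 from -0.0912 to 0.57. The cause was not tested. A group left with 1 library was assumed to vary like the others. Median-ratio scaling turned no sign among the called members or those with the largest changes in each comparison. With 2 libraries per group, small differences were not detectable at this spread.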
